A study of Homo sapiens with 20 samples.

Results

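Activation of Jurkat cells was examined in 10 of 20 RNA sequencing libraries, by comparing 6 whose cells had been plated on antibodies to CD3 and CD28 with 4 without these antibodies. Members were chosen by their labels. The 6 activated libraries were CD3+CD28 and CD3+CD28+TSP1, 1 each at 1, 3 and 6 h. The 4 unactivated libraries were TSP1 alone at 1, 3 and 6 h and untreated cells (UT) at 1 h. Jurkat is a human T cell leukemia line with a functional T cell receptor, and its WT form carries CD47, a receptor for thrombospondin-1 (TSP1). The other 10 libraries repeat this design in JinB8, a CD47- mutant line selected from Jurkat cells. They enter only the comparison of the lines and an alternative fit of activation over all 20 libraries. Cells of every group were held in serum-free medium, anti-CD28 was coated at 4 μg/mL and TSP1 was added at 1 μg/mL. Each condition was sequenced once, and cells were plated separately for each treatment and time. Whether these platings came from separate starting cultures is not given in the sources used here, so p-values measure the spread between libraries of a group after a term for time point. There was no untreated library at 3 or 6 h, so the only unactivated library at each of these times had received TSP1.

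Antibodies to CD3, the signaling part of the T cell receptor, together with antibodies to the costimulatory receptor CD28, mimic contact with antigen-bearing cells. The receptor starts the ERK kinase cascade, calcium and calcineurin signaling to NFAT, and NF-kB. Immediate-early genes such as FOS and EGR1 are transcribed within minutes through factors already present in the cell, and several of their products, among them NAB2, the DUSP phosphatases and the Sprouty proteins, dampen the same signals. Many of them are driven by serum response factor at a CArG box.

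EGR1 was the only called gene of the immediate-early lists whose RefSeq promoter held a CArG box (CC, a run of A or T, GG) in the window from 250 bases before to 50 bases after its start, and its sequence is shown because it sets a called gene beside a known control element. It lies on chromosome 5 of GRCh38.p14, plus strand, from 138465229 to 138465528. Capitals mark 2 CArG boxes, at -105 to -96 and at -83 to -74 from the start.
EGR1: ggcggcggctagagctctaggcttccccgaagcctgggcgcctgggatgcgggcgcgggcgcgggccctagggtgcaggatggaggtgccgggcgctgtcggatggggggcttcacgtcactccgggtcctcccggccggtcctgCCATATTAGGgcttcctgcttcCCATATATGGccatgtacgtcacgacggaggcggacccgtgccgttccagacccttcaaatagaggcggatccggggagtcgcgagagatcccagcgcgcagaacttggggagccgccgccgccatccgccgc
The RefSeq table held promoters of 18 of the 29 called genes. On either strand, a CArG box was found in 1 of the 18 (5.56%) and in 1.29% of all 27305 promoters and 1.06% of the 10665 of tested genes. The CRE motif TGACGTCA was found in 3 of the 18 (16.7%), those of PPP1R15A, AREG and GPR3, and in 1.98% of all promoters and 3.33% of those of tested genes. An AP-1 motif (TGAGTCA or TGACTCA) was found in 2 of the 18 (11.1%), those of GPR3 and SHC4, against 4.92% of all and 2.93% of those of tested genes. An EGR motif (GCGTGGGCG or GCGGGGGCG) was found in 2 (11.1%), those of NAB2 and DUSP2, against 5.7% of all and 9.14% of those of tested genes. None of these motifs contains another. A match describes the letters of this window only.

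The 10 Jurkat libraries held between 20483642 and 31737616 counts, and 3 counts corresponded to between 0.0945 and 0.146 CPM. Mitochondrial transcripts made up 0.380% to 0.643% of counts. The 10 most abundant genes made up 18.8% to 21.6% of counts in activated and 16.1% to 19.7% in unactivated libraries, and RN7SL2, a signal recognition particle RNA, made up 2.58% and 2.77% in TSP1 at 1 h and 3 h against 5.31% to 6.81% in the others. The part of this difference in the results was not tested. The 10 T lymphoblast markers were all detected, with a summed level of 2287 to 2891 CPM in activated and 1948 to 2537 CPM in unactivated libraries. Of the lists for other cell types, the 6 B cell markers summed to 40.9 to 54 CPM in activated and 33.8 to 45.3 CPM in unactivated libraries, mostly from CD79A at 32.2 to 52.0 CPM, and the 4 endothelial markers summed to 35.4 to 55.9 CPM, almost all from PECAM1 at 35.1 to 55.8 CPM. Monocyte, NK cell, erythroid, epithelial and fibroblast lists summed to at most 8.84 CPM in any library.

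The genes called for activation included immediate-early genes, the surface marker CD69 and feedback inhibitors of ERK signaling. Of 16528 genes tested, 27 were higher (0.163%) and 2 were lower (0.0121%) in activated cells at an adjusted p of 0.05 (edgeR quasi-likelihood test with time point as a term, Benjamini-Hochberg adjustment). CD69, an early surface marker of activated lymphocytes, was 3.99-fold higher, EGR1, a zinc finger transcription factor, 3.39-fold higher, and FOS, a subunit of the AP-1 factor, 2.71-fold higher. The lower genes were SOX11 and AC026464.4. At an unadjusted p under 0.05 there were 851 genes higher (5.15%) and 651 lower (3.94%), and the median log2 fold change of all genes was 0.00071. The number of calls changed with the libraries used. Leaving out 1 library gave 12 to 17 genes for 8 of the 10 libraries. It gave 46 genes without CD3+CD28 at 6 h, all 29 among them, and 112 genes without TSP1 at 6 h, with 28 of the 29. In all 10 of these fits 10 of the 29 genes were called (FOS, NAB2, AC008982.1, EGR1, CDKN1A, CD69, SCG2, DUSP2, CSRNP1 and EGR2), and the other 19 lost the call or were not tested in at least 1. EdgeR called 0 genes without a time term (223 at an unadjusted p under 0.05) and 0 when only CD3+CD28 was set against the unactivated libraries (923 at that level), where CD69 was 2.02 and FOS 1.38 higher on the log2 scale against 1.99 and 1.44 with all 10 libraries. When CD3+CD28+TSP1 was set against TSP1 matched by time, 35 genes were called (32 higher, 3 lower), of which 20 were among the 29. With a term for TSP1 in the fit of all 10 libraries, 19 genes were called (18 higher, 1 lower), of which 17 were among the 29.

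**Figure D1:**
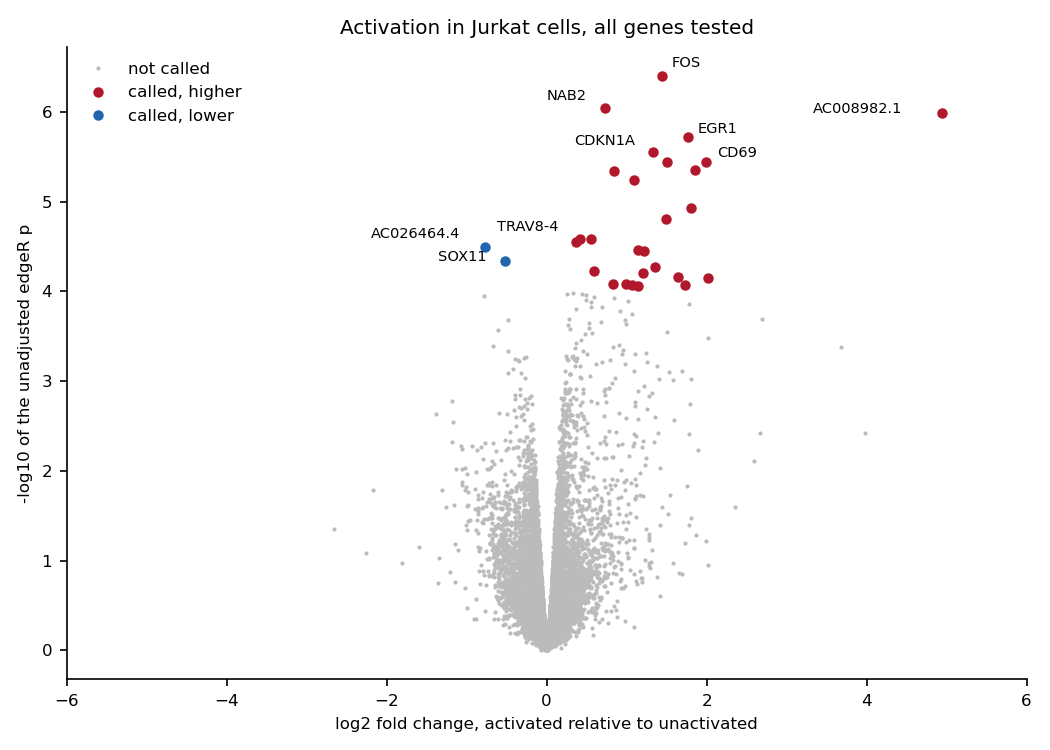
Each point is 1 of the 16528 genes tested, with the log2 fold change of activated relative to unactivated libraries on the x axis and -log10 of the unadjusted edgeR p on the y axis. The 27 genes called higher (red) outnumber the 2 called lower (blue), and FOS had the smallest p.

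The 3 markers separated the groups at every time point. CD69, on chromosome 12 of GRCh38 from 9752486 to 9760901 (GENCODE version 44), stood at 441 and 349 CPM with CD3+CD28 and CD3+CD28+TSP1 at 1 h, at 254 and 263 CPM at 3 h, and at 33.3 and 54.1 CPM at 6 h. In unactivated cells it stood at 101 CPM (UT) and 109 CPM (TSP1) at 1 h, and with TSP1 at 30.7 CPM at 3 h and 19.6 CPM at 6 h. Every activated library was above the unactivated libraries of its own time point, but both activated libraries at 6 h were below both unactivated libraries at 1 h. The log2 fold change was 1.99 (SE 0.250, adjusted p = 0.00831).

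EGR1, on chromosome 5 from 138465479 to 138469303, stood at 150 and 177 CPM with CD3+CD28 and CD3+CD28+TSP1 at 1 h, at 87.1 and 80.3 CPM at 3 h and at 10.5 and 16.9 CPM at 6 h. Unactivated libraries held 72.8 CPM (UT) and 63.7 CPM (TSP1) at 1 h, 13.8 CPM at 3 h and 3.43 CPM at 6 h. The groups did not overlap within a time point, and the level was lowest at 6 h in both groups. The log2 fold change was 1.76 (SE 0.208, adjusted p = 0.00796).

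FOS, on chromosome 14 from 75278826 to 75282230, stood at 80.1 and 93.3 CPM with CD3+CD28 and CD3+CD28+TSP1 at 1 h, at 46.4 and 43.1 CPM at 3 h and at 7.36 and 8.40 CPM at 6 h. Unactivated libraries held 26.4 CPM (UT) and 34.3 CPM (TSP1) at 1 h, 12.6 CPM at 3 h and 4.89 CPM at 6 h. The groups were again separate within each time point, and levels were lower at 3 h and lowest at 6 h in both. The log2 fold change was 1.44 (SE 0.146, adjusted p = 0.00567). An exact two-sided permutation test of log2(CPM + 0.5) within time points, over 54 arrangements, gave p = 0.0185 for each of CD69, EGR1 and FOS, the smallest that this design allows. That p follows from the separation within time points described above, in genes given as markers of activation, so it adds no further evidence. The mean differences over time points were 2.02, 1.87 and 1.31 for the 3 genes in this order.

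**Figure D2:**
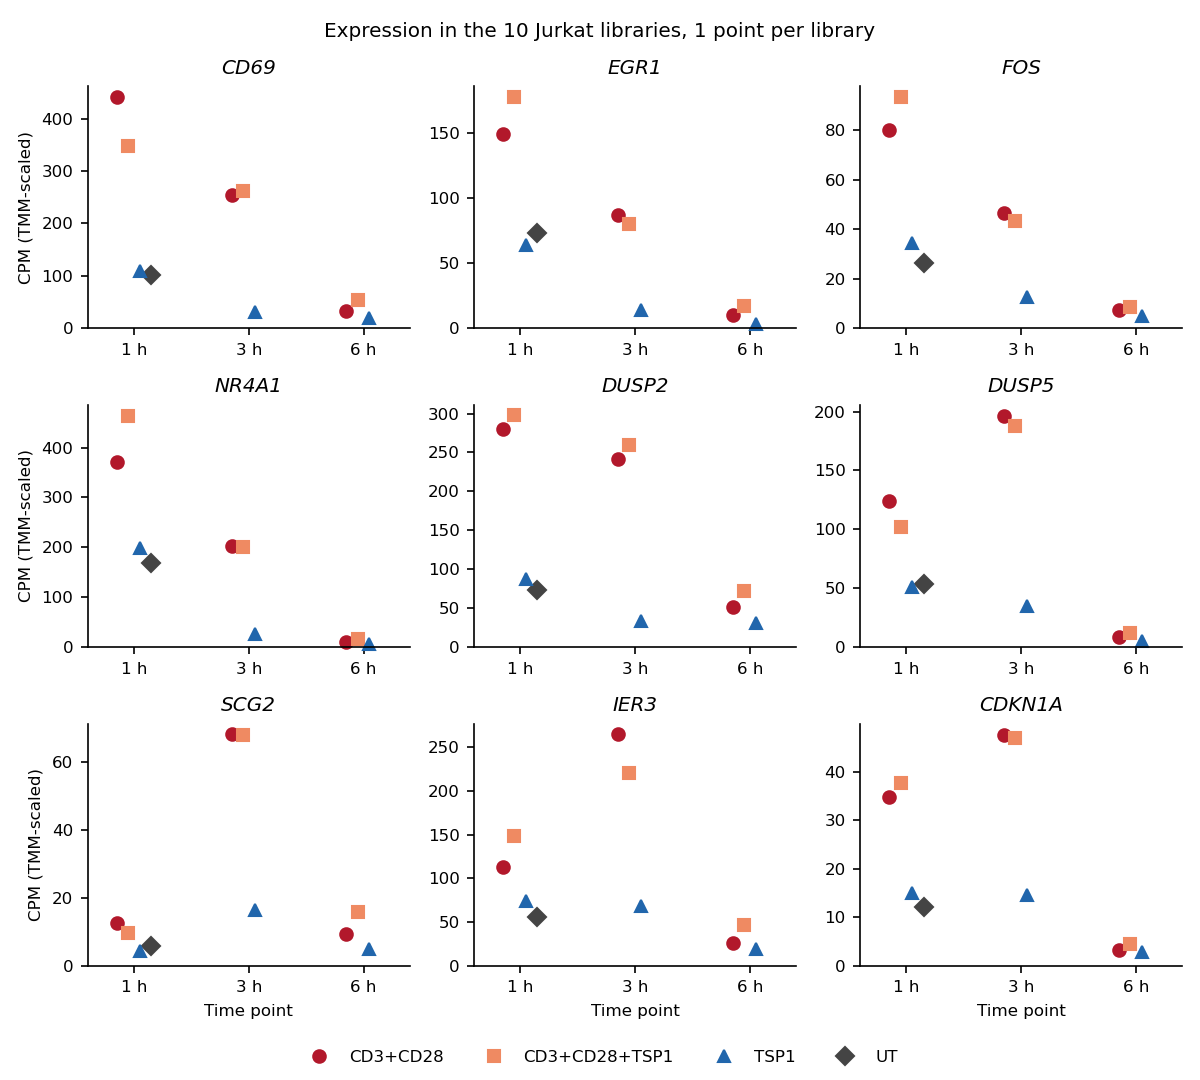
CPM on the y axis in each of the 10 Jurkat libraries for 9 called genes, by time point on the x axis, with 1 point per library and the treatment shown by colour and shape. Red and orange points (activated) lie above blue and grey points (unactivated) of the same time point in every panel. CD69 reached 441 CPM with CD3+CD28 at 1 h against 109 CPM at most without activation.

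Of the 6 EGR factors and NAB corepressors, 3 rose, and all 6 were higher at an unadjusted p under 0.05, with a median log2 fold change of 1.51. EGR2, a zinc finger factor that restrains T cell activation, stood at 100 and 99.3 CPM in activated libraries at 1 h against 35.8 (UT) and 40.3 CPM (TSP1), at 27.3 and 24.6 CPM at 3 h against 3.46 CPM, and at 1.19 and 3.78 CPM at 6 h against 0.732 CPM. EGR2 rose by 1.80 on the log2 scale (adjusted p = 0.0178, SE 0.254). The groups were separate at each time, with the smallest gap at 6 h. NAB2, which binds EGR proteins and represses their targets, stood at 143 and 147 CPM in activated libraries at 1 h against 84.1 (UT) and 96.0 CPM (TSP1), at 147 and 149 CPM at 3 h against 78.2 CPM, and at 28.4 and 36.8 CPM at 6 h against 21.8 CPM. Unlike EGR1, its activated level was about the same at 1 h and 3 h. NAB2 rose by 0.73 on the log2 scale (adjusted p = 0.00567, SE 0.0800). It shares 69 bases of its annotated span with STAT6 on the opposite strand, which was not called (log2 fold change 0.27), and the strand setting of the counting is not given in the sources used here. EGR3 (log2 fold change 1.25, adjusted p = 0.114), EGR4 (2.02, adjusted p = 0.0909) and NAB1 (0.37, adjusted p = 0.229) did not pass.

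In the AP-1 family, which pairs FOS and JUN proteins on DNA, FOS was the only member called of 10 tested, 5 were higher at an unadjusted p under 0.05, and the median log2 fold change was 0.31. FOSB had a log2 fold change of 0.43 (adjusted p = 0.203) and JUNB of 0.77 (adjusted p = 0.448). JUNB differed between the activated libraries of the same time point, at 38.1 CPM with CD3+CD28 and 92.7 CPM with CD3+CD28+TSP1 at 1 h. JUN did not pass, with a log2 fold change of 0.19 (adjusted p = 0.726).

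The NR4A orphan nuclear receptors are induced by receptor signaling and are widely used as reporters of its strength. NR4A1 stood at 371 and 463 CPM in activated libraries at 1 h against 169 (UT) and 198 CPM (TSP1), at 203 and 200 CPM at 3 h against 26.3 CPM, and at 9.48 and 16.6 CPM at 6 h against 6.13 CPM. Its log2 fold change was 1.64 (adjusted p = 0.0487, SE 0.277), and its groups were furthest apart at 3 h. NR4A3 (log2 fold change 0.91, adjusted p = 0.203) and NR4A2 (1.10, adjusted p = 0.448), which was at most 1.19 CPM, did not pass. All 3 were higher at an unadjusted p under 0.05.

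The list of DUSP, SPRY and SPRED genes, named for feedback on ERK signaling, also held several calls. Of its 14 genes 3 rose, 7 were higher at an unadjusted p under 0.05, none was lower, and the median log2 fold change was 0.33. DUSP2, a nuclear phosphatase of MAP kinases, stood at 280 and 298 CPM in activated libraries at 1 h against 73.8 (UT) and 87.8 CPM (TSP1), at 242 and 260 CPM at 3 h against 33.5 CPM, and at 51.3 and 71.8 CPM at 6 h against 31.2 CPM. Its activated levels at 1 h and 3 h were thus close while the unactivated level was lower at 3 h. DUSP5, a nuclear phosphatase selective for ERK, stood at 124 and 102 CPM at 1 h against 53.8 (UT) and 50.7 CPM (TSP1), at 196 and 188 CPM at 3 h against 34.5 CPM, and at 8.25 and 11.7 CPM at 6 h against 5.12 CPM. SPRY4, a Sprouty inhibitor of the pathway upstream of ERK, stood at 51.3 and 54.6 CPM at 1 h against 31.8 (UT) and 27.7 CPM (TSP1), at 46.7 and 43.4 CPM at 3 h against 13.3 CPM, and at 3.26 and 6.45 CPM at 6 h against 2.47 CPM. The log2 fold changes were 1.85 for DUSP2 (SE 0.237, adjusted p = 0.00831), 1.49 for DUSP5 (SE 0.216, adjusted p = 0.0214) and 1.14 for SPRY4 (SE 0.180, adjusted p = 0.0324). SPRY2 missed the threshold with a log2 fold change of 0.50 (adjusted p = 0.0555), as did DUSP10 (0.33, adjusted p = 0.175) and DUSP4 (1.42, adjusted p = 0.369). DUSP1, which is itself an immediate-early gene in many cells, had a log2 fold change of 0.13 (adjusted p = 0.68).

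Of 23 tested members of the wider immediate-early list, 4 rose, 14 were higher and 1 was lower at an unadjusted p under 0.05, and the median log2 fold change was 0.46. SCG2, a secretogranin known from neuroendocrine cells, had its highest levels at 3 h in both groups. It stood at 12.8 and 9.71 CPM in activated libraries at 1 h against 5.81 (UT) and 4.38 CPM (TSP1), at 68.1 and 68.0 CPM at 3 h against 16.4 CPM, and at 9.44 and 15.8 CPM at 6 h against 4.97 CPM. IER3, a stress-inducible regulator of cell survival, stood at 113 and 149 CPM at 1 h against 56.0 (UT) and 74.4 CPM (TSP1), at 265 and 221 CPM at 3 h against 68.0 CPM, and at 26.2 and 47.1 CPM at 6 h against 19.5 CPM. For both genes the activated level at 3 h exceeded that at 1 h, unlike FOS, EGR1 and CD69. CSRNP1, a nuclear protein first found as a target of AXIN1, stood at 142 and 149 CPM at 1 h against 64.6 (UT) and 70.0 CPM (TSP1), at 96.5 and 102 CPM at 3 h against 31.8 CPM, and at 15.5 and 17.8 CPM at 6 h against 12.6 CPM. PPP1R15A, which restores translation after stress by directing phosphatase to eIF2α, stood at 194 and 201 CPM at 1 h against 143 (UT) and 155 CPM (TSP1), at 111 and 105 CPM at 3 h against 79.8 CPM, and at 51.5 and 56.5 CPM at 6 h against 46.3 CPM. The log2 fold changes were 1.51 for SCG2 (SE 0.189, adjusted p = 0.00831), 1.22 for IER3 (SE 0.192, adjusted p = 0.0324), 1.09 for CSRNP1 (SE 0.143, adjusted p = 0.0094) and 0.36 for PPP1R15A (SE 0.0561, adjusted p = 0.031), the smallest of the called changes. IER2 (0.85, adjusted p = 0.054), KLF10 (0.91, adjusted p = 0.0626) and MCL1 (0.53, adjusted p = 0.0722), a survival protein of the BCL2 family, missed the threshold, and SRF had a log2 fold change of 0.22 (adjusted p = 0.175).

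**Figure D3:**
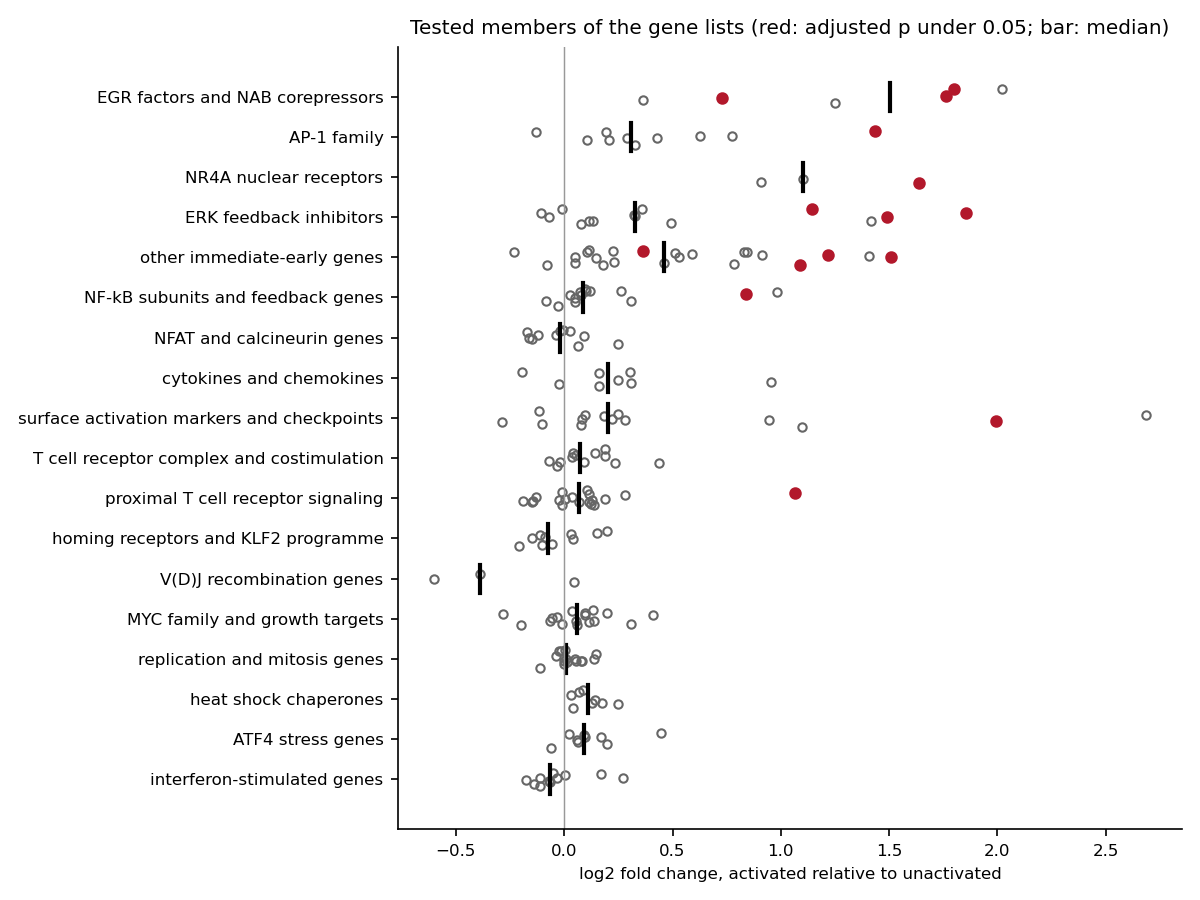
The log2 fold change of activated relative to unactivated libraries (x axis) of every tested member of 18 gene lists (rows), with called genes filled red and the list median as a bar. Called members lie in the EGR, AP-1, NR4A, ERK feedback, other immediate-early, NF-kB, surface marker and proximal signaling lists. The EGR list has the highest median, 1.51, and the replication list a median of 0.0099.

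Among NF-kB subunits and feedback genes, 1 of 14 rose and 3 were higher at an unadjusted p under 0.05, with a median log2 fold change of 0.09. The called gene was NFKBID, a nuclear inhibitor of NF-kB, at 16 and 20.7 CPM in activated libraries at 1 h against 11.2 (UT) and 10.6 CPM (TSP1), at 16.3 and 16.1 CPM at 3 h against 7.51 CPM, and at 6.60 and 7.80 CPM at 6 h against 4.51 CPM. Its log2 fold change was 0.84 (SE 0.107, adjusted p = 0.00831), with separate groups at each time. TRAF1, an adaptor of TNF receptors, had a log2 fold change of 0.98 (adjusted p = 0.0699). Of 11 tested NFAT and calcineurin genes, none was called, 1 was lower at an unadjusted p under 0.05, and the median was -0.02.

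Of 26 cytokines and chemokines, 8 passed the low-count filter, none was called and 2 were higher at an unadjusted p under 0.05. TNF stood between 0.578 and 3.25 CPM, with a log2 fold change of 0.96 (adjusted p = 0.109). IL2, the growth factor whose release is the usual readout of Jurkat activation, reached at most 0.349 CPM, from 31 counts over the 10 libraries, and was not tested. TGFB1, which restrains T cell growth, stood between 10.4 and 25.3 CPM and was not called (log2 fold change 0.30, adjusted p = 0.495). FASLG reached 3.57 CPM in the library where it was highest, from 189 counts in all, and was not tested either.

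Of 14 tested surface activation markers and checkpoints, CD69 was the only call, 5 were higher and 1 was lower at an unadjusted p under 0.05, and the median log2 fold change was 0.20. IL2RA, the alpha chain of the IL-2 receptor, was low throughout. It stood at 1.16 and 0.766 CPM in activated libraries at 1 h against 0.334 (UT) and 0.284 CPM (TSP1), at 6.68 and 4.89 CPM at 3 h against 0.417 CPM, and at 0.127 and 0.881 CPM at 6 h against 0.0770 CPM. Its log2 fold change of 2.69 (SE 0.514) was larger than that of CD69, but its adjusted p was 0.0699. PDCD1 (1.10, adjusted p = 0.13) and ICOS (0.95, adjusted p = 0.112) did not pass, and CTLA4 was not tested, with at most 0.131 CPM.

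None of 12 receptor complex and costimulation genes was called, 4 were higher at an unadjusted p under 0.05, and the median log2 fold change was 0.07. The constant segment of the receptor alpha chain, TRAC, came closest (log2 fold change 0.44, adjusted p = 0.054), at 168 to 290 CPM in activated and 134 to 173 CPM in unactivated libraries up to 3 h. A variable segment of the same locus, TRAV8-4, rose by 0.42 on the log2 scale (adjusted p = 0.031, SE 0.0637), from 50.2 (UT) and 51.2 CPM (TSP1) to 65.9 and 63.1 CPM at 1 h, from 63.2 to 96.3 and 103 CPM at 3 h, and from 43.0 to 50.2 and 54.3 CPM at 6 h. It belongs to a multigene family, so the division of reads among its copies is uncertain. TRBC2 had a log2 fold change of 0.24 (adjusted p = 0.159). Of 19 proximal signaling genes, 1 rose, 4 were higher and 1 was lower at an unadjusted p under 0.05, with a median of 0.07. The called gene was SH2D2A, an adaptor that binds the kinase LCK, at 9.74 and 9.37 CPM in activated libraries at 1 h against 4.29 (UT) and 5.23 CPM (TSP1), at 15.4 and 12.9 CPM at 3 h against 4.42 CPM, and at 3.68 and 5.79 CPM at 6 h against 3.35 CPM. Its log2 fold change was 1.06 (SE 0.185, adjusted p = 0.0493). LAT had a log2 fold change of 0.28 (adjusted p = 0.159).

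Other called genes outside the lists were higher in activated cells at each time. CDKN1A, the cyclin-dependent kinase inhibitor p21, stood at 34.9 and 37.7 CPM in activated libraries at 1 h against 12.1 (UT) and 15.1 CPM (TSP1), at 47.7 and 46.9 CPM at 3 h against 14.6 CPM, and at 3.26 and 4.44 CPM at 6 h against 2.89 CPM. The gene rose by 1.33 on the log2 scale (adjusted p = 0.00831, SE 0.162). PHLDB1, which holds a pleckstrin homology domain, stood at 3.76 and 3.32 CPM at 1 h against 1.48 (UT) and 1.95 CPM (TSP1), at 18.9 and 17.3 CPM at 3 h against 5.26 CPM, and at 1.19 and 1.51 CPM at 6 h against 1.04 CPM, with a change of 1.21 on the log2 scale (adjusted p = 0.0464, SE 0.202). Like SCG2, it was highest at 3 h in both groups. AL355304.1, a long noncoding RNA, stood between 0.296 and 7.42 CPM in activated and between 0.154 and 2.72 CPM in unactivated libraries, with a change of 1.73 on the log2 scale (adjusted p = 0.0493, SE 0.299). It shares 10293 bases of its annotated span with HIVEP2 on the opposite strand, which was not called (log2 fold change 0.48), and with the strand setting not known its reads may not be told apart from those of HIVEP2. The rule for named genes did not select TRAV8-4 or AC008982.1, which are described singly, nor the remaining calls, which are given here as a range. All of these were chosen after their values were seen. Of the remaining calls, LAX1, PTPN6, UBXN10, GPR3, SHC4, AREG and Z95115.2 had log2 fold changes from 0.56 to 2.02 and adjusted p from 0.031 to 0.0493. LAX1 is an adaptor and PTPN6 a phosphatase, and both restrain lymphocyte receptor signaling, while AREG is a ligand of the EGF receptor.

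AC008982.1 had the largest fitted change, 4.95 on the log2 scale (adjusted p = 0.00567, SE 0.550), but at low counts. It held 3.76 and 4.00 CPM in activated libraries at 1 h, 0.786 and 1.07 CPM at 3 h and 0.804 and 1.01 CPM at 6 h, against 0.334 CPM in UT and 0 in each of the TSP1 libraries. Its size rested on UT at 1 h, which held 7 counts, all those of the unactivated libraries. Without UT the other unactivated libraries were all at 0, and the fitted 8.55 is then no bound. Its annotated span, on chromosome 19 from 38817471 to 38840178, covers 14371 bases of ECH1 and 3809 bases of HNRNPL on the same strand, neither of which was called (log2 fold changes 0.08 and 0.03), so the division of shared reads between these genes is uncertain.

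Of the 2 genes that fell, SOX11, a transcription factor of embryonic and leukemic cells, stood at 11.0 and 10.2 CPM in activated libraries at 1 h against 17.3 (UT) and 16 CPM (TSP1), at 13.8 and 13.3 CPM at 3 h against 20.8 CPM, and at 25.0 and 22.4 CPM at 6 h against 28.3 CPM. Its log2 fold change was -0.52 (SE 0.0843, adjusted p = 0.0405), and its level was highest at 6 h in both groups. SOX11 shares 5166 bases of its annotated span with a long noncoding RNA on the same strand, so the division of shared reads is uncertain. AC026464.4 stood at 2.71 to 5.26 CPM in activated and 4.78 to 8.51 CPM in unactivated libraries, with a change of -0.77 on the log2 scale (adjusted p = 0.0324, SE 0.120). It overlaps SNTB2 and VPS4A on the same strand, so its share of the reads is uncertain as well. None of the 3 genes of V(D)J recombination, which Jurkat cells express as a line of immature origin, was called, and 2 were lower at an unadjusted p under 0.05 (median log2 fold change of the 3, -0.39). RAG1, an endonuclease subunit of the recombinase, stood at 221 and 199 CPM at 1 h against 329 (UT) and 342 CPM (TSP1), at 180 and 210 CPM at 3 h against 386 CPM, and at 545 and 482 CPM at 6 h against 537 CPM. Its groups overlapped at 6 h, and the log2 fold change was -0.60 (SE 0.119, adjusted p = 0.0803). RAG2 had a log2 fold change of -0.39 (adjusted p = 0.206).

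Lists of later or unrelated programmes held no calls. Of 17 genes of the MYC family and its growth targets, 3 were higher and 1 was lower at an unadjusted p under 0.05, with a median of 0.06, and MYC itself had a log2 fold change of -0.28 (adjusted p = 0.363). Among 15 replication and mitosis genes none passed an unadjusted p of 0.05 and the median was 0.0099. Of 10 homing receptor genes 1 was lower at that level (median -0.07). Of 8 heat shock and 9 ATF4 stress genes 2 each were higher at that level, with medians of 0.11 and 0.09, and of 11 interferon-stimulated genes none was (median -0.06).

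Differences at each time point are given as a description, since edgeR called no gene for a change of the response with time. Activated libraries lay above unactivated ones at 1, 3 and 6 h without overlap in all 27 genes called higher and below them in both genes called lower, against 3.57% and 3.28% of all genes tested, a property that follows in part from being called. This holds for scaled CPM, and at 6 h some gaps lay within counting error. Before scaling, CD3+CD28 and TSP1 at 6 h held 87 and 87 counts of SH2D2A and 77 and 75 of CDKN1A. For CD69 they held 786 and 508. The difference in mean log2(CPM + 0.5) was largest at 3 h in 25 of the 27 genes and smallest at 6 h in 24. Among 2461 tested genes higher at all times, it was largest at 3 h in 39.9% and smallest at 6 h in 47.6%. CD69 differed by 1.90 at 1 h, by 3.05 at 3 h and by 1.10 at 6 h. DUSP2 differed by 1.84, 2.89 and 0.95 and EGR1 by 1.25, 2.56 and 1.82 in this order. The values at 3 h and 6 h each rest on 1 unactivated library, and the TSP1 library at 3 h had the highest TMM factor (1.081).

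The edgeR interaction of activation with time gave 0 genes at an adjusted p of 0.05 and 621 at an unadjusted p under 0.05 (3.76%), while DESeq2 called 24 and limma voom 0. The smallest p belonged to AC233699.1, a pseudogene of at most 1.22 CPM in any library, CSRNP1 and KLF10, each with an adjusted p of 0.279. Of the 29 called genes, 16 had an unadjusted p under 0.05 in this test.

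**Figure D4:**
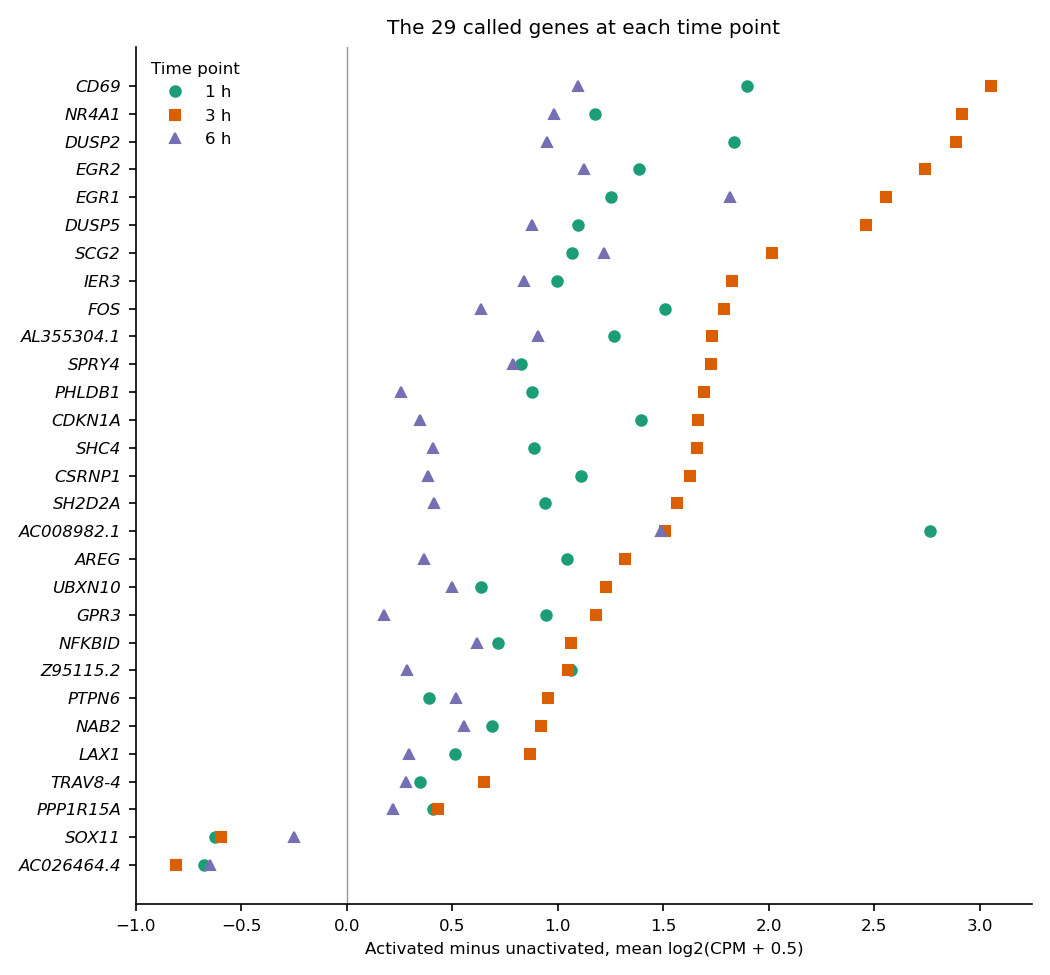
The difference in mean log2(CPM + 0.5) between activated and unactivated libraries (x axis) at 1, 3 and 6 h for each of the 29 called genes (rows). The points for 3 h lie furthest from 0 in 25 of the 27 genes higher in activated cells, with CD69 at 3.05, and no point crosses 0.

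The response was set beside that of JinB8 cells, which lack functional CD47. CD47 transcripts stood at 250.6 to 371 CPM in Jurkat and 124 to 165 CPM in JinB8 libraries, all scaled together. In JinB8 alone, 0 of 16861 genes (0%) were called by edgeR and 295 had an unadjusted p under 0.05 (1.75%). Of the 27 genes called higher in Jurkat, 6 lay above the unactivated JinB8 libraries at all 3 times and 9 at none. The 6 were CDKN1A, CSRNP1, DUSP2, NAB2, NR4A1 and SPRY4. The share over all genes was not computed for JinB8. The JinB8 CD3+CD28+TSP1 library at 3 h stood apart, with 16107921 counts and a TMM factor of 1.15. The other JinB8 libraries held 21945149 to 28525524 counts, with factors of 0.946 to 1.03. The part of this difference in the number of genes called in JinB8 was not tested. In an edgeR fit of all 20 libraries with a time effect for each line, 1 of 17927 genes (0.00558%), FOS, was called for a difference between the lines in its response. The call was lost when both lines shared 1 time effect, the difference being -1.30 (adjusted p = 0.978), and 0 genes were called (560 at an unadjusted p under 0.05). DESeq2 called 16 genes and limma voom 6, FOS among them in both. FOS stood in JinB8 at 55.4 and 57.7 CPM in activated libraries at 1 h against 56.8 (UT) and 48.4 CPM (TSP1), at 33.5 and 30.8 CPM at 3 h against 30.6 CPM, and at 25.4 and 26.8 CPM at 6 h against 29.9 CPM. The groups were thus close at every time in JinB8. The log2 fold change of FOS was lower in JinB8 than in Jurkat by 1.40 (difference -1.40, SE 0.179, adjusted p = 0.00618), being 1.42 in Jurkat and 0.01 in JinB8. Without the JinB8 TSP1 library at 6 h the difference was -1.32 with an adjusted p of 0.0618, and over all 20 fits that left out a library the adjusted p ranged from 3.97e-05 to 0.0618.

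CD69 and SCG2 had the next smallest p. The response of CD69 differed by -1.92 (SE 0.319, adjusted p = 0.0772), from 1.99 in Jurkat to 0.07 in JinB8, and that of SCG2 by -1.46 (SE 0.244, adjusted p = 0.0772), from 1.49 to 0.04. EGR1 had a log2 fold change of 0.45 (SE 0.220) in JinB8, and its difference between the lines of -1.32 (SE 0.330) had an adjusted p of 0.551. Of the 28 called genes that could be tested in JinB8, 25 had the same direction as in Jurkat. The share of all tested genes with the same direction in both lines was not computed, so this count is a description only. The median size of the log2 change was 1.21 in Jurkat over all 29 called genes and 0.17 in JinB8 over the 28 tested there. These medians cover unlike sets, and the genes had been selected for their change in Jurkat, which favours larger values there. The count of lower responses in JinB8 rests on that selection and is a description. JinB8 is a separate line, so the lack of CD47 and other differences between the lines cannot be told apart.

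**Figure D5:**
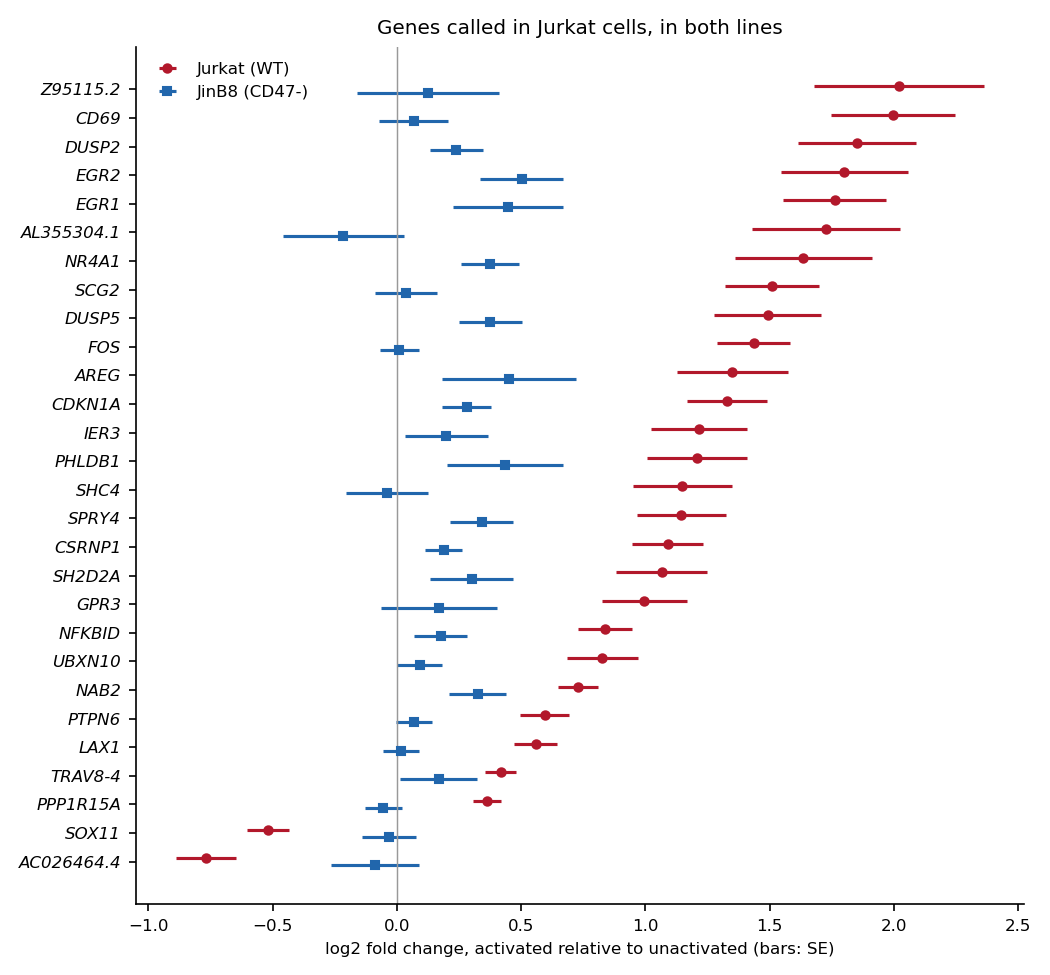
The log2 fold change of activated relative to unactivated libraries (x axis, bars are the SE) in Jurkat (red) and JinB8 (blue) for the 28 called genes tested in both lines (rows). The Jurkat value lies further from 0 in all 28, as the choice of genes favours, with FOS at 1.44 in Jurkat and 0.01 in JinB8.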

How the data were processed

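Gene expression in 20 libraries was read from a deposited table of RSEM expected counts for 60719 genes, which the authors made by trimming reads with Cutadapt 1.18, aligning them to GRCh38 with STAR 2.4.2a and counting them with RSEM 1.3.3 on GENCODE version 36. The expected counts are not divided by library size or length. Another 2 columns belong to no sample and were not used, nor were isoforms or the ComBat batch correction of the study, whose batch is not named. Counts were rounded for edgeR 4.0.16 and DESeq2 1.42.0 and left unrounded for limma 3.58.1 (R 4.3.3). Genes were kept by filterByExpr (minimum count 10, minimum total 15), and CPM were scaled by TMM factors over the libraries of each line. The edgeR quasi-likelihood test used activation and time point in 10 libraries, their interaction, and the interaction of activation with line in 20 libraries, with Benjamini-Hochberg adjustment over all genes and a threshold of 0.05. SE was taken from the F statistic. Scripts were tested on simulated data. The alternatives were other tools, scalings, filters and terms, subsets of libraries, other pseudocounts and each library left out in turn. Library pairs were compared by chi-square, and the closest pair, CD3+CD28 and TSP1 at 6 h, differed by 4.68 per degree of freedom, above sampling noise and below the 8.79 between both activated libraries at 6 h. Depth limits are for counting error only.

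Named genes were CD69, EGR1 and FOS, the 12 largest increases and 8 largest decreases among called genes whose log2 CPM averaged 1 or more and had the same sign at each time, called members of the gene lists, the 3 genes of smallest p in each interaction, and up to 4 uncalled members per list, picked with their values seen. Called genes outside this rule were described after their values were seen. The members and lists were chosen with earlier results of these data known. Gene positions are from GENCODE version 44, matched by identifier.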

Additional observations from a re-analysis of the deposited data

Results flagged for a closer look

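In the 4 unactivated Jurkat libraries, AC008982.1 stood at 0.334 CPM in UT at 1 h and at 0 in the other 3, which set that library apart from its group. SCG2 stood at 16.4 CPM with TSP1 at 3 h against 4.38 to 5.81 CPM in the other unactivated libraries. PTPN6 stood at 31.7 CPM with CD3+CD28 at 6 h, below the 37.8 to 40.9 CPM of the other activated libraries. The CD3+CD28+TSP1 library at 6 h held 31737616 counts, against 22555825 to 24610661 in the other activated libraries. These were 4 of 68 groups of values examined with Dixon's test, of which chance marks about 1 in 20, and the libraries of a group differ in time point and treatment. The response of FOS differed between the lines by -1.40 on the log2 scale (JinB8 minus Jurkat) in the edgeR interaction test, a call that was lost with a time effect shared by both lines (-1.30, adjusted p = 0.978).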

How the results depend on the processing

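The number of genes called for activation, 29 in the reported fit, was 163 with DESeq2 and 61 in the fit over all 20 libraries. It was 19 with upper-quartile factors (all among the 29) and 19 with a term for TSP1 (17 among the 29). It was 9 with the 1 h libraries only and 9 with the 3 and 6 h libraries only. It was 425 without a low-count filter (323 higher, 102 lower). It was 0 without a time term (223 at an unadjusted p under 0.05 by edgeR) and 0 for CD3+CD28 alone against the unactivated libraries (923 at an unadjusted p under 0.05 by edgeR), and 35 for CD3+CD28+TSP1 against TSP1 matched by time, 20 of them among the 29. It ranged from 12 to 112 when 1 library was left out. DESeq2 and the fit without a filter called all 29, limma voom 27 of them, the fit with a CPM of at least 1 in at least 4 libraries 20 (all among the 29), and robust quasi-likelihood called 28 genes, of which 17 were among the 29. For activation by time, 0 in the reported fit, the count was 24 with DESeq2 and 226 without a filter, and 0 to 5 with a library left out. Fits without TSP1 at 3 h or at 6 h could not be made. For activation by line, 1 in the reported fit, it was 16 with DESeq2, 6 with limma voom, 218 without a filter and 0 with a time effect shared by both lines (560 at an unadjusted p under 0.05), and 0 to 10 with a library left out. When labels were exchanged over all time points in the exact permutation test, the log2 differences were 1.67 for CD69, 1.34 for EGR1 and 1.00 for FOS and missed the threshold. With a library left out they ranged from 1.5 to 2.48, from 1.53 to 1.99 and from 1.07 to 1.65, and without the TSP1 library at 3 h or 6 h the permutations left cannot reach 0.05. The cause of these changes was not tested. Leaving out a library also leaves fewer libraries or permutations. Of 1300 values of 57 genes followed under the alternatives, 940 kept their direction and side of the threshold, 284 lost the call or adjusted p and 75 gained a call. The other 1 reversed, that of JUN, which was -0.0355 on the log2 scale with the 3 and 6 h libraries only. No paired analysis was possible because the labels carry no replicate numbers to use as a block. Libraries were matched by time point only, through the time term.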
